A study of Mus musculus with 4 samples.

Results

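The mouse genes named Zfp and a number encode zinc finger proteins, and 249 of them formed the set described here. They were chosen by name and by their control methylation, as autosomal protein-coding genes with a gene body, taken without the outer 2000 bp at each end, that held at least 20 measured CpGs and a mean methylation of at least 70% in both control samples. Of 360 autosomal genes with such a name, 39 had no body after trimming or fewer than 20 measured CpGs and 72 had a lower control level. The whole genome, under the same conditions, gave 11833 autosomal gene bodies, of which 11569 were not named Zfp. Within the set, 141 genes were clustered, meaning that another gene named Zfp lay within 100 kb, and 108 were single.

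DNA methylation was measured by whole-genome bisulfite sequencing in male germ cells from testes of 21-day-old mice. Both control samples were Np95fl/fl, with a floxed Np95 gene, and both knockout samples were Np95fl/fl:Stra8-Cre, with the same floxed gene and a Cre recombinase driven by the Stra8 promoter, which acts in premeiotic male germ cells. All 4 samples thus carried the floxed allele. The cells came from hand-picked seminiferous tubules after a mesh step against interstitial cells, so tubule cells in which Stra8-Cre is silent can remain. Whether replicates of a group were separate animals is not said, so a p-value here speaks of variation among these 4 samples only, which could be technical.

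C2H2 zinc finger proteins bind DNA through arrays of short folds, each held together by a zinc ion. Many mouse Zfp proteins also carry a KRAB domain, which recruits the co-repressor Trim28 and the histone methyltransferase Setdb1, and a large share of them bind retroelements. Their genes have multiplied by local duplication and lie in clusters of related copies. Np95, also called Uhrf1, brings the maintenance methyltransferase Dnmt1 to newly replicated CpGs, so that methylation is passed on at cell division.

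Each sample had a value at between 28999710 and 29774194 cytosines, and 22421484 cytosines had one in all 4 samples. The reads behind each value are unknown. A window upstream of H19, which is methylated in male germ cells, measured 86.7% and 91.9% in the controls, with 39.2% and 49.8% in the knockouts. The starts of Ddx4, Dazl, Sycp3, Mael and Sycp1, which are unmethylated in germ cells, lay between 1.70% and 13.5% in the controls, and between 7.47% and 21.2% in the knockouts. Of 5 starts that carry maternal imprints, 4 were below 9% in both controls, and that of Snrpn, with 5 measured CpGs, was at 65.6% and 64.9%. Mest went from 8.09% and 4.20% in controls to 12.0% and 13.5% in knockouts. Peg10 went from 3.09% and 1.35% to 11.1% and 3.90%, and Nnat from 5.14% and 2.79% to 14.1% and 7.52%. Mest, Peg10 and Nnat were thus higher in both knockouts than in both controls. Peg3 went from 7.55% and 3.63% to 6.94% and 4.97%, and Snrpn fell to 36.3% and 30.4%.

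The bodies of the Zfp genes were highly methylated in controls and kept somewhat more than the other gene bodies in knockouts. Their mean level was 86.2% and 89.8% in the controls, with 50.3% and 50.8% in the knockouts. That is 88.0% ± 2.59 (SD, n = 2) in controls against 50.6% ± 0.317 (SD, n = 2), a difference of -37.4 points. The knockouts retained 57.4% of the control level, a value called the retained share below. Every one of the 249 bodies had both knockout values below both control values, as did every one of the 11569 other bodies. In limma's test across 14995 gene bodies all 249 were called lower, against 97.1% of all bodies tested; a call needed 10 points or more and p under 0.05 after Benjamini-Hochberg adjustment. Control values chose the genes and enter this contrast, so nothing is read from that count.

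**Figure D1:**
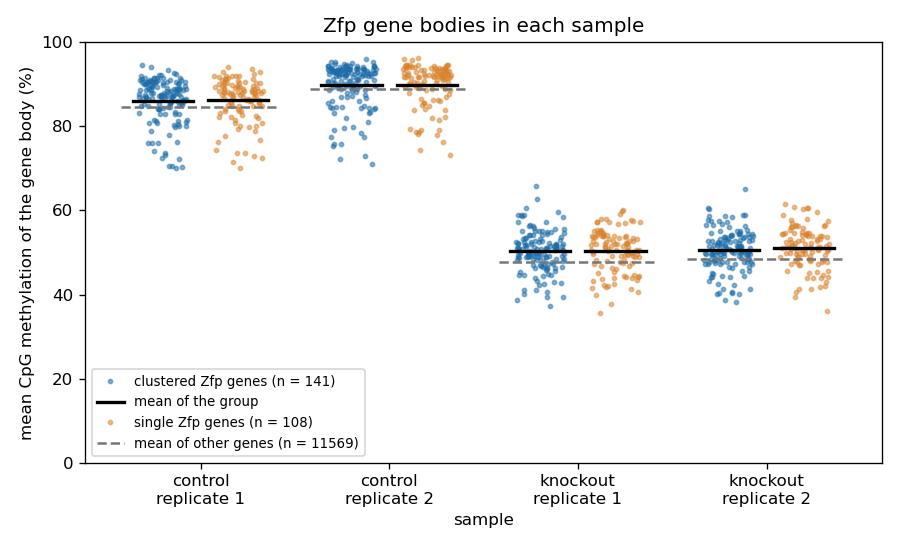
Mean CpG methylation of each Zfp gene body (percent, y axis) in each of the 4 samples (x axis), with clustered and single genes as points, their means as black bars and the mean of other gene bodies as a dashed line. The means of Zfp genes are 86.2% and 89.8% in controls and 50.3% and 50.8% in knockouts.

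The methylation that remained was spread over most cytosines. Of 86726 cytosines in the Zfp bodies, 75.5% and 84.5% were at 80% methylation or above in the controls but only 3.81% and 4.03% in the knockouts. Cytosines at or under 20% made up 5.02% and 5.06% in controls, and 9.71% and 9.14% in knockouts. Most cytosines in knockouts therefore had a middle level. In a pool of cells, a lower level in every cell and fewer cells with methylation cannot be told apart.

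The genes nearest to the limit of 70% show what the choice of members left in and out. Zfp442, just inside, measured 70.1% and 71.2% in the controls, with 44.5% and 44.8% in the knockouts. Zfp112, just outside, measured 69.7% and 71.9% in the controls, with 41.1% and 39.2% in the knockouts. Zfp536 was also just inside, with a lower control value of 70.1%, and Zfp27 just outside, with 69.7%. The 72 genes under the limit ranged down to Zfp503, a regulator of development whose body was at 1.08% and 0.840% in controls and at 1.25% and 1.49% in knockouts.

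Compared with other gene bodies, Zfp bodies were slightly more methylated in controls and further above them in knockouts. Zfp minus other bodies was 1.58 and 0.935 points in the controls, and 2.70 and 2.44 points in the knockouts. This contrast grew by 1.31 points, and the groups of samples do not overlap. Permuting the samples exactly (two-sided) gave p = 0.333, the smallest that 2 against 2 samples allow. Other gene bodies went from 86.7% to 48.0% and retained 55.3%, which is 2.13 points less than Zfp bodies. Against the 1265 other genes that lie within 500 kb of a Zfp gene of the set the gap was 1.72 points, again with p = 0.333 (exact). Those neighbours retained 55.7% and other genes farther away 55.3%, with contrasts to each other that overlapped between the groups of samples (exact p = 0.667).

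Across genes the retained share had a median of 57.5% in the Zfp set, with quartiles of 55.5% and 59.6%, and of 55.5% in other genes, with quartiles of 52.3% and 58.0%. Shares under 54% were found in 37 Zfp genes (14.9%) and in 4436 other genes (38.3%). The limit of 54% was set after the distribution was seen. Other genes formed one peak on each side of it, while Zfp genes mostly lay in the upper one. In knockouts the body levels of the 249 genes in replicate 1 and replicate 2 had a Pearson r of 0.840 and a Spearman rho of 0.795. These are descriptions across genes that share libraries and alignment, not tests.

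**Figure D2:**
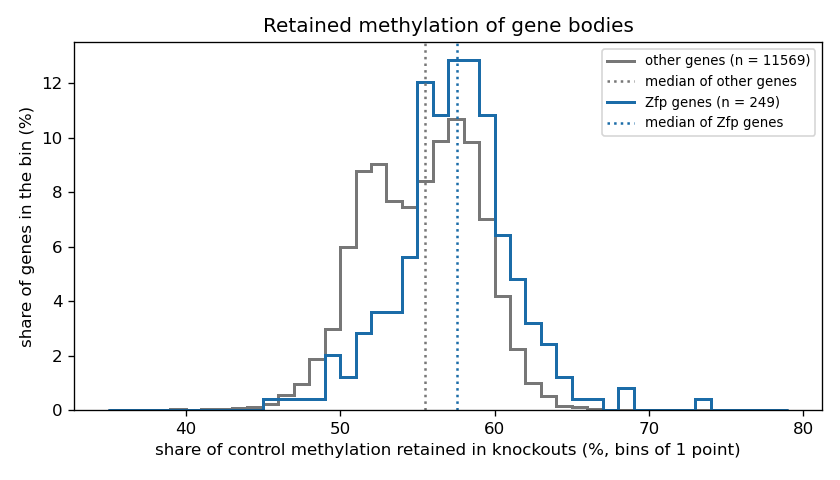
Share of control methylation retained in knockouts (percent, x axis, bins of 1 point) and the percent of genes in each bin (y axis) for 249 Zfp genes and 11569 other genes, with dotted lines at the medians of 57.5% and 55.5%. The curve of other genes has a peak below 54% that is much smaller in Zfp genes.

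Relative to the median gene body, more Zfp genes were called for a high retained share than for a low one. This measure is the log2 change of a body's level after each sample was centred on the median of all 11833 bodies, and a call needed an adjusted p under 0.05 in limma and a change of at least 0.1. Of the 249 genes, 72 (28.9%) were called higher, against 16.8% of all bodies, and 8 (3.21%) were called lower, against 9.65% of all bodies. The median change was 0.07 in the Zfp set and 0.02 over all bodies tested. The controls that chose the genes enter this measure too, so the counts are descriptions. The calls also rest on the spread shared between genes and on both controls: without control replicate 1 or without control replicate 2 no Zfp gene was called in either direction, and with each gene's own spread alone none was. Limma gave 146 of the 249 genes (58.6%) an unadjusted p under 0.05 with all samples, close to the 57.4% of all bodies.

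The genes with the highest retained shares were led by Zfp574 (chromosome 7, gene at 25075674 to 25083492), which had 79.9% and 82.3% in the controls, with 57.8% and 60.6% in the knockouts. Its retained share was 73.0%, and its change relative to the median body was 0.41 ± 0.02 (SE) on the log2 scale. Zfp646 (chromosome 7, 127876914 to 127885996) measured 94.7% and 95.4% in the controls, with 65.8% and 65.2% in the knockouts, a share of 68.9%. Both have short trimmed bodies, of 3819 and 5083 bp, with 26.7 and 24.0 listed CpGs per kb, against a median of 8.26 per kb in the set. Zfp933, which lies in a cluster on chromosome 4, followed with 68.0%, from 90.3% and 90.9% in the controls, with 62.8% and 60.5% in the knockouts. Its densest 1 kb window was at 90.2% and 91.6% in the controls, with 71.5% and 77.6% in the knockouts, and the window alone retained 82.0%. The other genes among the 10 highest were Zfp180 (66.1%), Zfp422 (65.3%), Zfp944 (64.3%), Zfp69 (64.2%), Zfp617 (64.2%), Zfp41 (63.4%) and Zfp68 (63.3%). Of the 10, only Zfp422 was not called; its knockout values of 50.5% and 61.6% lay far apart.

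At the other end, Zfp939 (chromosome 7, 39449479 to 39477429) retained 45.8%, from 84.5% and 89.1% in the controls to 39.5% and 40.1% in the knockouts. Its change relative to the median body was -0.25 ± 0.02 (SE) on the log2 scale. Zfp54 followed with 46.8% on 20 measured CpGs and was not called; its knockout values were 45.7% and 40.3%. The others among the 10 lowest were Zfp474 (47.8%), Zfp108 (48.2%), Zfp957 (49.4%), Zfp456 (49.4%), Zfp536 (49.6%), Zfp423 (49.6%), Zfp946 (49.8%) and Zfp395 (50.2%). Of the 10 lowest, Zfp939, Zfp474, Zfp957, Zfp536, Zfp423 and Zfp946 were called lower, and Zfp985 and Zfp418, with 50.6% and 50.8%, completed the 8 lower calls.

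Clustered and single Zfp genes differed in their loss by less than the spread between samples. Clustered genes averaged 86.1% and 89.8% in the controls, with 50.3% and 50.5% in the knockouts. Single genes averaged 86.2% and 89.9% in the controls, with 50.4% and 51.1% in the knockouts. The retained shares were 57.3% and 57.6%, a difference of -0.348 points, and clustered minus single was -0.0631 and -0.0286 points in controls and -0.0611 and -0.604 points in knockouts. These contrasts overlap between the groups (exact two-sided permutation, p = 0.667). Without knockout replicate 1 the difference was -0.656 points and without knockout replicate 2 it was -0.0396 points. Its sign turned when bodies needed 50 CpGs, when 5000 bp were trimmed and when the cluster distance was 250 kb. Calls of higher retention were made for 41 of 141 clustered genes (29.1%) and 31 of 108 single genes (28.7%), against 16.8% of all bodies. Lower calls were made for 4 clustered (2.84%) and 4 single genes (3.70%), against 9.65% of all bodies.

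Clustered copies resemble each other, and no source used here says how the aligner treated reads that match several copies. The share of listed CpGs with a value in all samples had a median of 73.3% in clustered Zfp bodies, 79.1% in single ones and 83.3% in other genes. The part of this in the levels of clustered genes was not tested.

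The clusters with most genes of the set each held genes with high and low retained shares. On chromosome 13, from 67038594 to 67827000, lay 23 genes named Zfp, 11 of them in the set, with means of 84.2% and 87.8% in controls and 48.4% and 48.7% in knockouts. Their retained shares ran from 49.4% for Zfp456 to 60.3% for Zfp953. On chromosome 7, from 29768552 to 30169775, the 11 genes of the set ran from 53.0% for Zfp146 to 62.5% for Zfp84, and on chromosome 17, from 21383707 to 21994366, the 9 genes ran from 46.8% for Zfp54 to 59.9% for Zfp942. The medians of these 3 clusters were 56.7%, 57.5% and 56.3%.

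The cluster on chromosome 4, from 147124882 to 147849126, was less methylated, with 78.7% ± 1.87 (SD, n = 2) in controls, and had knockout means of 45.3% and 45.9%. Its genes ran from 50.6% for Zfp985 to 68.0% for Zfp933, with 3 of the 8 in the set called higher and 1 lower. Among all bodies 16.8% were called higher and 9.65% lower. Zfp985 measured 84.2% and 87.1% in the controls, with 42.6% and 44.1% in the knockouts, below both knockout values of Zfp933 given above. A smaller cluster on chromosome 17, from 22337983 to 22456689, also held calls in both directions among its 3 genes. There Zfp944 measured 85.8% and 93.1% in the controls, with 57.2% and 57.8% in the knockouts. Zfp946 measured 81.4% and 87.5% in the controls, with 42.9% and 41.3% in the knockouts. The control ranges of this pair overlap and the knockout ranges are over 10 points apart.

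**Figure D3:**
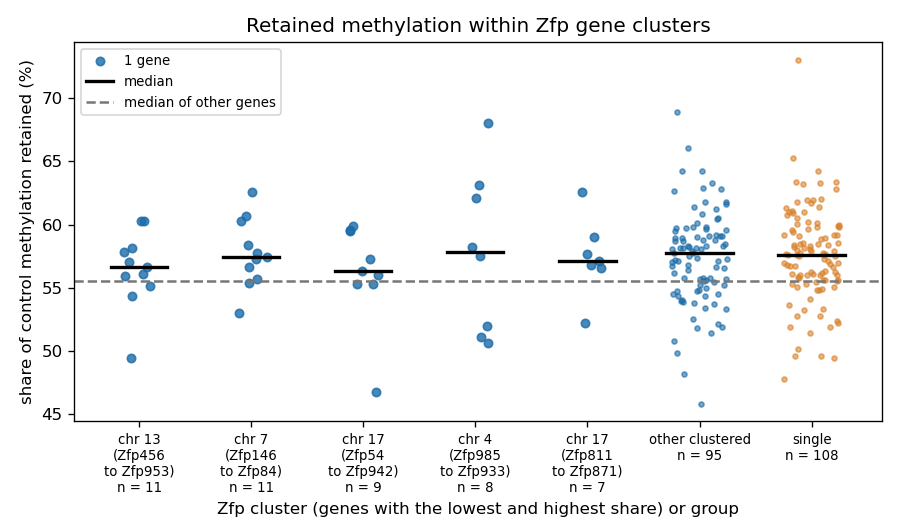
Share of control methylation retained by each Zfp gene (percent, y axis) in the 5 clusters with most genes of the set, in other clustered genes and in single genes (x axis), with medians as black bars and the median of other genes, 55.5%, as a dashed line. Each cluster spans several points, from 50.6% to 68.0% in the cluster on chromosome 4, and the medians lie between 56.3% and 57.9%.

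By chromosome, chromosome 7 held 55 genes of the set, 43 of them clustered, and chromosome 17 held 31, 24 of them clustered. The median retained share was 57.3% on chromosome 7 and 57.6% on chromosome 17. It ranged from 50.2% on chromosome 14, with 3 genes, to 59.1% on chromosome 5, with 12.

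The 5′ and 3′ portions of the Zfp bodies, cut at the midpoint, kept nearly the same distance from each other in controls and knockouts. In 222 genes with at least 10 measured CpGs on each side, the 5′ portion averaged 85.2% and 89.0% in controls and 49.0% and 49.8% in knockouts. The 3′ portion averaged 87.3% and 90.9% in controls and 51.4% and 51.5% in knockouts. The 5′ portion was thus lower in every sample, by 2.09 and 1.85 points in controls and 2.33 and 1.77 points in knockouts, and these differences overlap between the groups (exact two-sided permutation p = 1). The retained shares were 56.7% and 57.8%, a difference of -1.05 points, against -0.891 points in 10638 other genes. The difference was -0.919 points in clustered and -1.21 points in single genes.

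No Zfp gene was called for a difference between its portions in limma with all samples, where the lowest adjusted p was 0.157. An unadjusted p under 0.05 in limma was found for 56 of 222 genes (25.2%), against 21.7% of all 10874 bodies tested. The 5′ portion retained less in 40 of the 56, and in 1663 of the 2363 such genes among all bodies, a similar share. With 1 knockout left out the test did call genes, among the Zfp genes and among all bodies. The spread in that setting came from the controls alone. Nothing is read from those calls. By value the largest differences, which are descriptions, were those of Zfp62, with 55.5% retained in the 5′ and 70.4% in the 3′ portion, and of Zfp988, with 66.0% and 49.7%.

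Along the body in 10 equal bins, the Zfp level was lowest next to the start. The first bin measured 81.6% and 85.9% in controls, and 45.7% and 46.8% in knockouts. The last bin measured 87.8% and 91.2% in controls, and 51.2% and 52.0% in knockouts. The retained share was 55.3% in the first bin and between 56.7% and 58.4% in the other 9. Other genes had a similar course, from 54.1% in the first bin to 55.9% in the last.

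**Figure D4:**
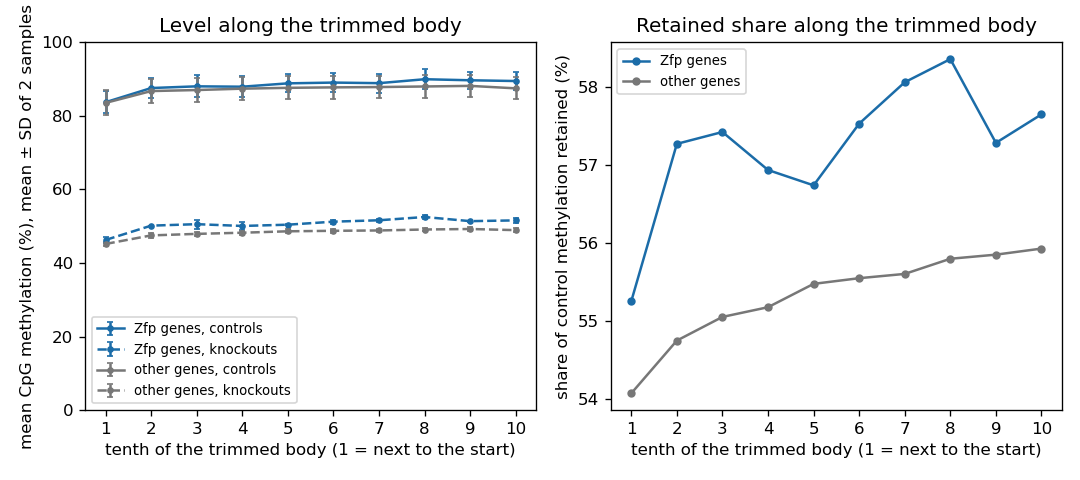
Left, mean methylation (percent, y axis; points and bars are mean and SD of 2 samples) in 10 equal bins of the trimmed body (x axis, 1 next to the start) for Zfp and other genes in controls and knockouts. Right, the retained share in percent, with a y axis that starts above 0. Zfp genes lie above other genes in all 10 bins, and both are lowest in the first bin.

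Zfp genes had the higher median retained shares at every CpG density and length compared. Zfp genes with under 5 listed CpGs per kb had a median retained share of 56.6% (40 genes) and other genes of that density 53.8%. At 15 per kb or more the medians were 58.9% (18 genes) and 56.4%. The same order held in the 2 density classes between these and in 4 classes of length, from 59.0% against 55.1% under 5 kb to 55.3% against 53.4% at 100 kb or more. Within the Zfp set, the Pearson r of the retained share was 0.220 with CpGs per kb, -0.210 with log10 length and 0.139 with the control level. Spearman rho was 0.102, -0.122 and 0.270 (249 genes, a description). In the 11569 other genes the control level had the largest of these values, with a Pearson r of 0.350 and a Spearman rho of 0.482. Zfp and other bodies were not compared within classes of control level. With a control limit of 80% the retained share of Zfp bodies was 1.74 points above that of other bodies, against 2.13 points in the main setting. The part of the control level in this gap was not tested.

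The zinc finger array is usually encoded in a single long last exon. The densest 1 kb of listed CpGs was compared with the rest of each body. In 169 genes whose densest window held at least 10 measured CpGs and at least 70% in both controls, that window measured 89.4% and 92.4% in controls and 53.4% and 53.8% in knockouts. The rest of those bodies measured 86.9% and 90.7% in controls and 50.6% and 51.2% in knockouts. The window retained 59.0% and the rest 57.3%. Window minus rest was 2.52 and 1.69 points in controls and 2.78 and 2.62 points in knockouts, which do not overlap (exact p = 0.333, the smallest possible). In 105 of the 169 genes (62.1%) the window retained the larger share, against 4123 of 7629 other genes. In those other genes the window retained 56.5% and the rest 55.7%. Their window minus rest was 2.37 and 1.59 points in controls and 1.94 and 1.82 points in knockouts, which overlap. Another 25 Zfp genes had such a window below 70% in a control. By position, the window had a median of 63.2% along the body in Zfp genes and 62.3% in other genes. Whether a window lies over a finger array was not analysed here.

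Unlike the bodies, the starts of most Zfp genes were unmethylated, in controls and knockouts alike. Start windows, from 1000 bp outside to 500 bp inside the outer 5′ end of the gene, share no cytosine with the gene's own trimmed body, which chose the genes. Of 233 with at least 5 measured CpGs, 214 were under 20% in controls, 8 were between 20% and 50% and 11 were at 50% or above. The 214 low starts averaged 3.53% and 3.70% in the controls, with 3.11% and 2.89% in the knockouts. By the same rule of call as for bodies, limma called 15 (6.44%) lower in knockouts, against 25.4% of the 17285 starts tested, and none higher, against 0.278%. For the 10665 starts of other genes whose bodies met the same conditions, 17.2% were called lower. All starts tested include those of genes whose bodies did not meet the conditions, and the classes were not counted without them. In controls 4.72% of Zfp starts were at 50% or above, against 22.4% of all starts. In that class 10 of the 11 Zfp starts and 3856 of all 3869 starts were called lower. An unadjusted p under 0.05 was found for 80 of the 233 (34.3%), against 46.3% of all starts. With each start's own spread alone no Zfp start was called.

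The 5 largest of these falls were those of Zfp235, Zfp976, Zfp957, Zfp57 and Zfp948. The Zfp235 start went from 91.4% and 95.2% in the controls to 46.7% and 45.1% in the knockouts, a change of -47.4 points (limma adjusted p = 0.00016) on 8 CpGs. Zfp57 encodes the KRAB protein that binds methylated imprinting control regions and helps keep them methylated. Its start window went from 83.6% and 95.0% to 51.2% and 49.6%, a change of -38.9 points (limma adjusted p = 0.000745), and retained 56.5%, close to the 55.6% of its body. Zfp976, Zfp957 and Zfp948 changed by -46.0, -43.9 and -38.5 points. The other 10 starts called lower were those of Zfp988, Zfp981, Zfp652, Zfp771, Zfp980, Zfp534, Zfp239, Zfp933, Zfp9 and Zfp335, with changes from -37.7 to -11.5 points.

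Genes can have further starts inside the outer end. RefSeq promoter records (assembly GRCm38.p6, the same build as mm10) covered 205 of the 249 genes, with 244 starts in all, and 203 genes had a window around a recorded start with at least 5 measured CpGs. For 192 of the 203 at least 1 such window was under 20% in controls. Of the 15 starts called lower, 14 belonged to genes with such a record, and in 7 of those 14 genes a recorded start was under 20% in controls. Zfp771 had 83.1% in the outer window, as the control mean, and 1.11% around its recorded start 1530 bp further in. Zfp57 had 3 recorded starts. The outermost was methylated as given above, and the windows around the next, 1362 and 2503 bp further in, were at 0.841% and 4.29% in controls and 0.902% and 3.70% in knockouts.

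The sequences below are the 250 bases upstream of recorded starts, 5′ to 3′ on the gene's strand, with each CG in capitals. The 3 of Zfp57 are shown because a methylated and 2 unmethylated starts stand in 1 gene, and that of Zfp652 as a second methylated start. Zfp42 and Zfp541 were picked because their outer starts had the largest positive differences among genes of the role lists. The Zfp42 sequence is that of its outer start. For Zfp541 the only recorded start lies 10070 bp inside the outer end, so its sequence is not that of the outer start. They lie at chr17:37000913-37001162 (Zfp57 outer), chr17:37002275-37002524 (Zfp57 middle) and chr17:37003416-37003665 (Zfp57 inner), all on the plus strand, at chr11:95748817-95749066 on the plus strand (Zfp652), at chr8:43307010-43307259 on the minus strand (Zfp42) and at chr7:16071595-16071844 on the plus strand (Zfp541).
Zfp57 outer: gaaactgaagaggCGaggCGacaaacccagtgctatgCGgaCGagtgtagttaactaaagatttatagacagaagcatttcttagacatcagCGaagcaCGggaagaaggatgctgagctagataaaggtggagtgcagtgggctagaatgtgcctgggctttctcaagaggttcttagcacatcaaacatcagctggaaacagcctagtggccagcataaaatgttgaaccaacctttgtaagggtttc
Zfp57 middle: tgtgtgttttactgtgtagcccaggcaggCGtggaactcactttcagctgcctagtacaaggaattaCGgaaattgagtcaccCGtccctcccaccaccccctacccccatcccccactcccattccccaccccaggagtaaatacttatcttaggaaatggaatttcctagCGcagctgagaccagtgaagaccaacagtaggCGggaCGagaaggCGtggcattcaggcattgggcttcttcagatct
Zfp57 inner: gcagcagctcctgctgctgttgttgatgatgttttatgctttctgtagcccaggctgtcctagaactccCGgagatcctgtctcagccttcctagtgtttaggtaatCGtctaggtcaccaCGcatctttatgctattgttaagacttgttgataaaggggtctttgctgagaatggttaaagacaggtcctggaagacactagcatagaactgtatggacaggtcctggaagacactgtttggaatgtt
Zfp652: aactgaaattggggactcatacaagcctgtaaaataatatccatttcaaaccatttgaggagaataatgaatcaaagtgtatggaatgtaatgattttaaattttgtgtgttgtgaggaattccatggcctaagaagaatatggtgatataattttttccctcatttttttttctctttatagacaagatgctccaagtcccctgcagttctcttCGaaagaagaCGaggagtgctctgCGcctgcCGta
Zfp42: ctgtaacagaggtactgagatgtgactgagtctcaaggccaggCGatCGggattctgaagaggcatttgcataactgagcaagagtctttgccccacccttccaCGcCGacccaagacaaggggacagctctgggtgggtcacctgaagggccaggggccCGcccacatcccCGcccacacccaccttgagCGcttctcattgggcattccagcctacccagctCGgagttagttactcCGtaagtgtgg
Zfp541: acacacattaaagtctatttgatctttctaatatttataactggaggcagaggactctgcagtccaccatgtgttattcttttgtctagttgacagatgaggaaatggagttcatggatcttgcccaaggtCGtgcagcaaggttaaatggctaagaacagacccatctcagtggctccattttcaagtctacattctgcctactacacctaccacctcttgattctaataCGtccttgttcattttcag

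In the outer Zfp57 sequence 4 of the 6 CpGs were measured, at 76.2% and 100% in the controls, with 62.4% and 51.8% in the knockouts. In the middle one 4 of 7 were measured, and all 4 samples were between 0.862% and 1.86%. In the inner one all 3 were measured, at 4.57% and 8.94% in the controls, with 12.6% and 6.12% in the knockouts. All 4 CpGs of the Zfp652 sequence were measured, at 89.3% and 100% in the controls, with 58.8% and 56.3% in the knockouts. Zfp652 encodes a transcriptional repressor. In the Zfp42 sequence 8 of the 9 CpGs were measured, at 4.64% and 7.40% in the controls, with 6.92% and 11.8% in the knockouts, which overlap. Both CpGs of the Zfp541 sequence were measured, at 81.8% and 96.9% in the controls, with 32.7% and 40.1% in the knockouts.

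Over the set, recorded starts with a measured window under 20% in controls had a median of 11 CpGs in the 250 upstream bases (222 starts), and those at 50% or above a median of 2 (13 starts). At most 5 CpGs were found in 53 of all 244 recorded starts (21.7%) and in 49.6% of the 32851 starts in the RefSeq table. CG reads the same on both strands.

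No Zfp start was called higher. The largest positive differences were 6.29 points at Zfp541, a meiotic chromatin protein, 6.12 points at Zfp451 and 5.87 points at Zfp42, also known as Rex1, a marker of pluripotent cells. The Zfp541 start was at 5.83% and 2.80% in the controls, with 12.6% and 8.60% in the knockouts (limma adjusted p = 0.00831). The Zfp42 start was at 8.36% and 10.9% in the controls, with 14.2% and 16.9% in the knockouts (limma adjusted p = 0.0247). In these 2 outer start windows, of Zfp541 and Zfp42, the knockouts lie above the controls without overlap, under the 10 points a call needed. Among the starts given above as a check of the cell type, those of Dazl, Sycp3, Mael, Sycp1, Mest, Peg10 and Nnat were likewise higher in both knockouts than in both controls. The others were not. Ddx4 had 13.5% and 11.3% in the controls, with 18.4% and 7.47% in the knockouts, Peg3 overlapped between the groups and Snrpn fell. The part of the mix of cells in these differences was not tested. Around the recorded start of Zfp541, which lies 10070 bp inside the outer end and within the trimmed body, the window was at 87.6% and 95.5% in controls and 46.4% and 46.7% in knockouts. The 250 bases upstream of this inner start, printed above, hold 2 CpGs. Those upstream of the outer Zfp42 start hold 9.

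**Figure D5:**
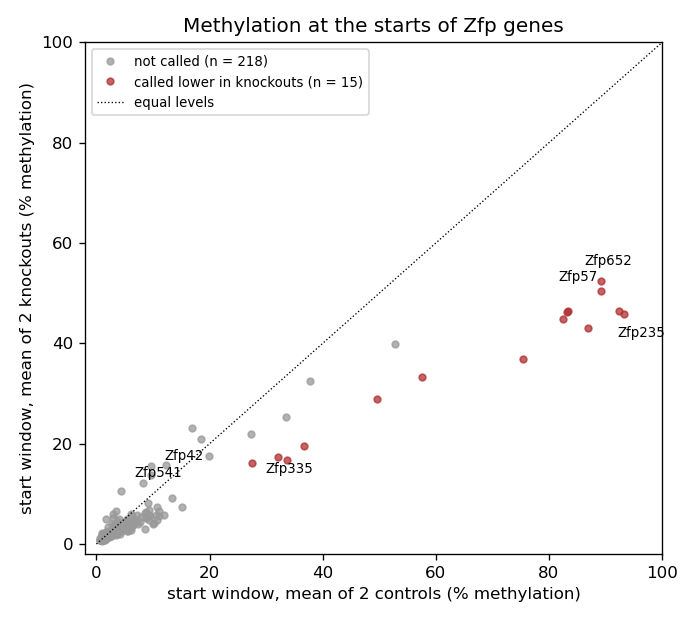
Mean methylation of the start windows of 233 Zfp genes in 2 controls (percent, x axis) and in 2 knockouts (percent, y axis), with the dotted line marking equal levels. The 15 starts called lower lie below the line, and Zfp541 and Zfp42 lie just above it at low levels.

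Of 6 genes with roles in imprinting and the early embryo, 4 were in the set and 2 of them were called higher in retention, as were 16.8% of all bodies. Zfp57 measured 72.4% and 78.8% over its body in the controls, with 43.5% and 40.6% in the knockouts. Zfp445, which also protects imprints, measured 70.7% and 72.2% in the controls, with 42.3% and 42.2% in the knockouts. Zfp568, which represses a placental promoter of Igf2, measured 89.4% and 94.0% in the controls, with 54.2% and 56.3% in the knockouts. Relative to the median body, Zfp445 (59.1% retained) and Zfp568 (60.3%) were called higher, and Zfp57 (55.6%) and Zfp42 (55.5%) were not called. Zfp445 has a recorded start 20845 bp inside its outer end, within the trimmed body. The window around it, with 52 measured CpGs, was at 10.1% in controls and 5.61% in knockouts, as means. The 3′ portion of the body, which holds this start, was at 61.0% in controls and retained 62.4%. Its 5′ portion was at 91.0% in controls and retained 55.0%. The part of this start in the call was not tested. The body of Zfp217 was below the control limit and that of Zfp281 had too few CpGs. The start of Zfp217 went from a control mean of 87.2% to 44.2% and was called lower.

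Of 4 genes whose proteins bind retroelements, 2 were in the set. Zfp809, which silences murine leukaemia viruses, measured 86.6% in controls and 49.8% in knockouts, as means. Zfp819 measured 87.1% and 93.5% in the controls, with 51.0% and 47.5% in the knockouts. Neither was called relative to the median body. Zfp708 was below the control limit over its body, and its start, called lower, went from 88.3% to 44.9%. Zfp932 and, as the only gene listed with CCCH fingers, Zfp36 had bodies with too few CpGs.

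In the male germ line list, Zfp541, Zfp318, Zfp37, Zfp35 and Zfp819 belonged to the set and none was called relative to the median body. The Zfp541 body measured 87.5% and 92.5% in the controls, with 47.2% and 51.4% in the knockouts, a retained share of 54.8%. The shares of these 5 genes ran from 54.5% to 58.9%, with a median of 58.4%. Zfp628 was below the control limit, and Zfp29 is listed as Zscan2, outside the naming rule.

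Of the regulators of development and other processes, 7 of 9 were in the set, with a median retained share of 51.9%. Zfp423, a regulator of neural and fat cell development, measured 80.2% and 84.8% in the controls, with 40.6% and 41.3% in the knockouts. Zfp536, a regulator of neuronal differentiation, measured 70.1% and 74.4% in the controls, with 35.7% and 36.0% in the knockouts. Both were called lower relative to the median body, and Zfp335, needed in neural progenitors, was called higher, at 59.4%. Among all bodies 9.65% were called lower and 16.8% higher, and no test of this small list was made. Zfp423 and Zfp536 have long bodies, with 3698 and 4818 measured CpGs. The 15 Zfp genes with bodies of 100 kb or more had a median retained share of 55.3%, and 1947 other genes of that length one of 53.4%.

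Of 22 partners of KRAB proteins outside the family, 20 bodies were tested and all 20 were called lower in knockouts, against the 97.1% given above. In the 19 that met the control limit the retained share ran from 46.8% to 61.4%, with a median of 58.2%. Relative to the median body, 6 of them were called higher and 1 lower, against 16.8% and 9.65% of all bodies. Trim28, the co-repressor that KRAB domains bind, measured 90.0% and 94.9% in the controls, with 54.6% and 57.6% in the knockouts and was called higher. Daxx, a histone chaperone, measured 82.9% and 88.7% in the controls, with 37.8% and 42.5% in the knockouts and was the 1 called lower, with 46.8% retained.

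Other zinc finger families named by symbol had medians at or above that of the Zfp set. The median was 58.2% in 23 Zbtb bodies, 61.1% in 7 Zscan bodies and 58.8% in 6 Zkscan bodies, with 9, 4 and 2 called higher and none lower. Over all bodies 16.8% were called higher, and no test of these small groups was made.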

How the data were processed

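The members and gene lists were chosen with earlier results of these data known. Per the labels' protocols, 2 µg of DNA was converted with bisulfite before adaptors were added. The authors deposited 1 table that gives, in percent, the methylation of each cytosine in a CpG in each sample, with no read depth; its title names a minimum of 10 reads. Per the submitters' processing notes the build was mm10; aligner and methylation caller: not given in the sources used here. A region's level was the mean over cytosines with a value in all 4 samples (60.2% of those listed), each weighted alike. Gene positions and strands came from RefSeq tables (GRCm38.p6); where strand was missing (44 members), the end listing at least 2 times the CpGs of the other was taken as the start. Levels were tested with limma 3.58.1 (R 4.3.3, trended and robust) across all regions, on log2((m + 0.01)/(1 − m + 0.01)) of the fraction m for bodies and starts and on log2(m + 0.01) for retention and gene portions, with Benjamini-Hochberg adjustment. Single values were compared by an exact permutation test over samples. The tests were tried on simulated data. Other tools were SciPy 1.17.1, pandas 2.3.3, NumPy 2.4.6, Matplotlib 3.10.9 and Python 3.11.15. Named genes are the 10 highest and 10 lowest retained shares, called portions and the 5 largest called starts in each direction, the fixed role lists, the genes next to the control limit and the 5 clusters with most members. The remaining called starts, Zfp62, Zfp988 and Zfp771, the genes next to them in clusters, the comparison with other genes and with neighbours, the densest window and the recorded starts were added after seeing the data. Replicates left out, other trims, minimums and scales were tried as alternatives.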

Additional observations from a re-analysis of the deposited data

How the results depend on the processing

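The 249 calls of lower bodies numbered at least 248 with any 1 sample left out, and Zfp against other genes kept its sign in all alternatives run. Of 72 calls of higher retention, leaving out 1 sample gave between 0 and 106, each gene's own spread gave 0 and a control limit of 80% gave 30. For the 8 lower calls these were 0 to 12, 0 and 13, and no minimum change gave 15. Calls for gene portions ranged from 0 to 79 with 1 sample left out. The 15 called starts became 0 with their own spread and 53 with no minimum difference. The difference between clustered and single genes, -0.348 points, lay between -0.656 and -0.0396 with 1 sample left out and became 0.0427 with 50 CpGs, 0.112 with 5000 bp trimmed and 0.171 with 250 kb. For the 20 genes named by retained share, alternatives left the call unchanged 163 times, ended it 48 times and made one 12 times; for the 15 starts these were 127, 22 and 0, and no sign turned. The causes were not tested, beyond fewer samples or genes.

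With the replicate numbers as a block the counts were 249, 70 higher (67 shared with the 72) and 8 lower (7 shared with the 8), 0 portions and 15 starts. Zfp946 was then not called lower (limma adjusted p = 0.0525) and Zfp54 was (0.0396). Across genes, the difference between the 2 controls and that between the 2 knockouts had a correlation of 0.119 for bodies and 0.0401 for retention. With 2 pairs this cannot show whether samples with the same number share more than the number. Depth is unknown, so single cytosines carry no interval.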
